A study of Drosophila melanogaster with 4 samples.

Results

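Homeobox genes encode transcription factors that bind DNA through a homeodomain, and most of those described here specify where a cell lies in the embryo or which kind of neuron, muscle, glial cell or sense organ it becomes. The 50 genes are homeobox genes of Drosophila melanogaster that lie outside the Hox complexes, taken from a fixed list of names, out of 13968 protein-coding genes on the chromosome arms. For each gene, the transcription start sites (TSSs) within 200 bp of any of its annotated transcript starts on the same strand were collected. This found 730 TSSs. The 50 genes have 81 annotated starts, not all of which had a TSS. The list leaves out the Hox genes and the pair-rule and segment polarity homeobox genes. It covers genes of head and trunk patterning, the columns of the neuroectoderm, neurons and glia, the mesoderm, the eye, appendages and other ectodermal derivatives, and the cofactors of Hox proteins.

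The embryos were of the Canton S wild-type strain, untreated, collected from population cages at 0 to 12 h on yeasted molasses-agar plates, and the material was whole embryos of mixed stage. Nascent initiation was measured by csRNA-seq in 3 libraries, with 1 input library, so that there is 1 condition and no treatment to compare. In csRNA-seq, short RNAs that carry a 5′ cap are selected and sequenced, and the first base of a read is the base at which a transcript began. Coverage, in reads per 10000000, is listed once for each TSS, and each value is a whole number of reads of 1 library, of 7299457, 5931389 or 4070746 reads, so that neighbouring bases can rest on different libraries. There is therefore no spread between replicates, no difference was tested across them, and the intervals given below cover counting error only. Fewer cells that transcribe a gene and less initiation per cell cannot be told apart in whole embryos. The stage was checked with 2 marker lists. All 8 genes of the early embryo (eve, ftz, Kr, kni, sna, twi, slam and nullo) had a TSS, with strongest coverage from 12.3 to 5304. None of 8 genes of larval glands or adult eye, muscle, yolk and testis or accessory gland had one listed.

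Homeobox factors act largely through where and when they are made, so that their promoters take signals from enhancers that can lie far away in large introns or between genes. Promoters of such developmental genes are known in flies for initiation at a narrow position, whereas promoters of broadly used genes often initiate over many positions. The values below describe how strongly, from how many promoters and from how narrow a position the homeobox genes initiated.

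Of the 50 genes, 49 had at least 1 TSS (98.0%, 95% Wilson interval 89.5% to 99.6%), while 70.0% of the 13968 protein-coding genes had one. The exception was ro, which encodes a factor of photoreceptor fate in the eye disc and had no TSS listed at its 2 annotated starts. The strongest start of a gene, meaning its TSS of highest coverage, had a median of 389 over the 49 genes, with quartiles of 68.8 and 978. Over the 9782 protein-coding genes with a TSS the median was 52.1, with quartiles of 17.2 and 194. The homeobox genes with coverage of at least 100 at their strongest start were 34 of 50 (68.0%, 54.2% to 79.2%), beside 25.9% of the protein-coding genes. Of the 49 genes, 38 lay above the median of the detected protein-coding genes and 20 were among the highest 10% of them. The median number of TSS positions per detected gene was 12 in both groups.

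**Figure D1:**
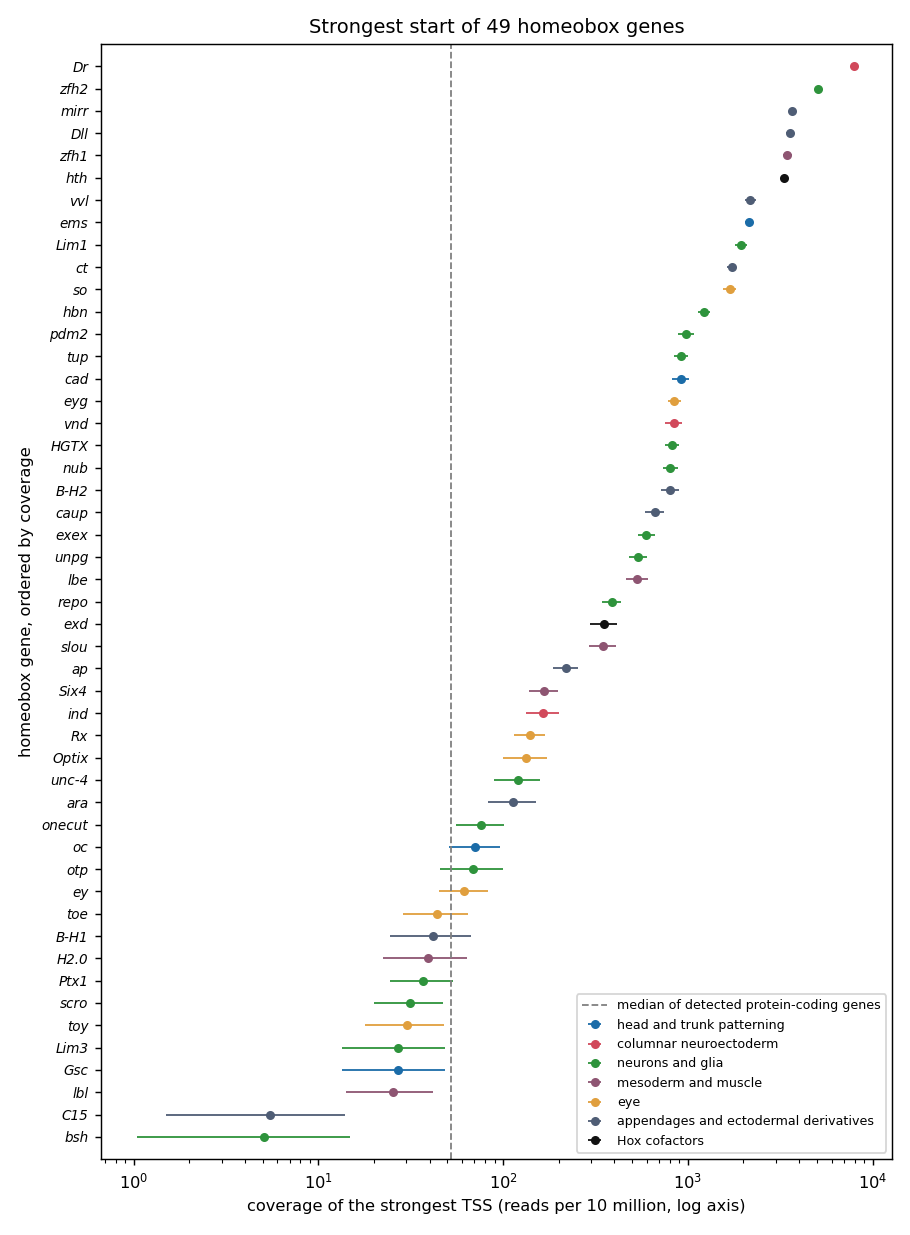
Coverage of the strongest TSS (reads per 10000000, log axis) of the 49 homeobox genes with a TSS, ordered by coverage and coloured by role. Points are deposited values, bars are 95% exact Poisson intervals of the reads, and the dashed line at 52.1 is the median of detected protein-coding genes, with Dr highest at 7898 and bsh lowest at 5.06.

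**Figure D2:**
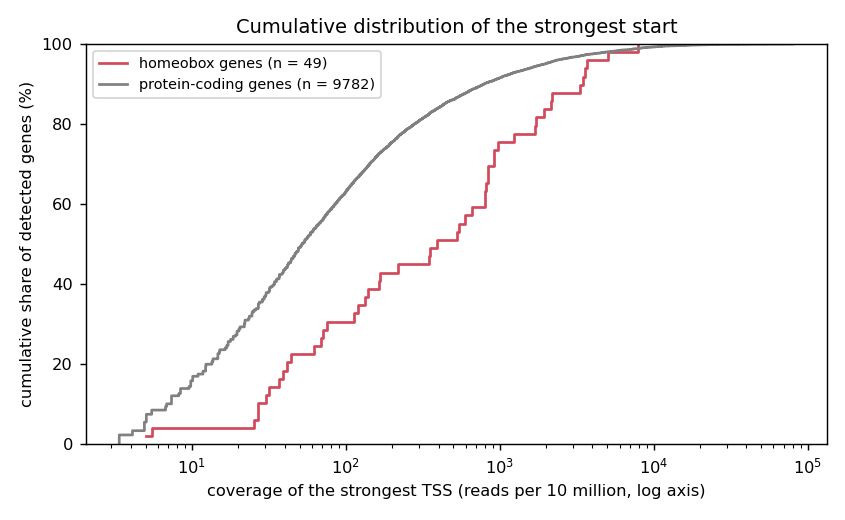
Cumulative share of detected genes (%) by coverage of the strongest TSS (log axis), for 49 homeobox genes and 9782 protein-coding genes. The curve of the homeobox genes lies to the right over most of its length, with a median of 389 beside 52.1.

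The highest value belonged to Dr, the Msx-family gene of the dorsal column of the neuroectoderm. Its strongest TSS, at base 29556388 of chromosome 3R, plus strand (dm6), had coverage of 7898 from 3215 reads (95% exact Poisson interval 7627 to 8176), 2 bp downstream of the annotated start. The next gene was zfh2, a zinc finger homeodomain gene transcribed in the nervous system, with 5046 (4867 to 5230) at base 501816 of chromosome 4, plus strand. These genes stood 98.8% and 98.0% of the way up the ranked detected protein-coding genes. Next in order were mirr of the Iroquois complex with 3667 (3530 to 3809), the limb gene Dll with 3562 (3412 to 3718), the mesodermal zinc finger homeodomain gene zfh1 with 3454 (3276 to 3639) and the Hox cofactor hth with 3303 (3172 to 3438). The counting intervals of neighbours in this order overlapped from mirr to Dll, from Dll to zfh1 and from zfh1 to hth, so the reads do not resolve the order of these neighbours, while the intervals of mirr and hth did not overlap. The tracheal and neural POU gene vvl, at 2181, and the head gap gene ems, at 2148, completed the highest 8 and also had overlapping intervals. A total of 12 of the 49 genes had a strongest start of at least 1000, and the share of protein-coding genes at that level is not given here.

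At the other end, bsh, a gene of brain neurons, rested on 1 TSS with 3 reads, a coverage of 5.06 (1.04 to 14.8). The leg gene C15 had coverage of 5.48 from 4 reads (1.49 to 14.0), with further TSSs that brought its sum to 15.9. The ladybird gene lbl had 25.3 (14.2 to 41.7), and the head gene Gsc and the motor neuron gene Lim3 both had 27.0 (13.5 to 48.4). A total of 15 of the 49 genes had a strongest start below 100. For bsh and C15, the values are so close to the lowest coverage in the list, 3.37, that little can be said of their level.

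The genes were next read by role. Among the 4 genes of head and trunk patterning, ems and the posterior gene cad, at 914, lay far above the head genes oc, at 70.8, and Gsc. The 3 columnar genes of the neuroectoderm were all above 100: Dr in the dorsal column at 7898, vnd in the ventral column at 838 and ind in the intermediate column at 164. The intervals of these 3 did not overlap. All 17 genes of neurons and glia were detected, with a median of 540 and a range from 5.06 to 5046. In this group the LIM gene Lim1 had 1938, the brain gene hbn 1229, the Islet-family gene tup 917, the Nkx6-family gene HGTX 819, the motor neuron gene exex 597 and unpg 540. The glial gene repo had 389 (345 to 437), the median of the 49 genes. Lower values in this group were 120 for unc-4, 75.9 for onecut, 68.8 for otp, 37.0 for Ptx1 and 31.5 for scro.

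The 6 genes of mesoderm and muscle ran from 25.3 to 3454, with a median of 256. Between zfh1 and lbl lay the muscle identity genes lbe, at 531, and slou, at 346, then Six4, at 166, and the visceral mesoderm gene H2.0, at 39.3. Of the 8 genes grouped here under the eye, 7 were detected, with a median of 133. The sine oculis gene so had 1683, eyg 844, Rx 140 and Optix 133, and the Pax genes ey, toe and toy had 61.6, 43.8 and 30.3. The 10 genes of appendages and ectodermal derivatives had a median of 733, and 8 of them were at 100 or more. They included ct, which sets the identity of external sense organs, at 1726, and the wing and neuron gene ap, at 218. Sorted by homeodomain class instead, the 12 PRD genes had the lowest class median, 69.8, with 5 genes at 100 or more. The ANTP class had a median of 535 over 18 detected genes of 19. Classes of few members say little, such as the 2 ZF genes with values of 5046 and 3454.

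Many homeobox genes arose by duplication and have a related gene close by. In 6 of the 9 sets of related genes compared, the strongest start of the highest gene was over 5 times that of the lowest. In the Iroquois complex on chromosome 3L, whose genes encode TALE homeodomain proteins, mirr had 3667, caup 663 (587 to 747) and ara 113 (82.7 to 151). The starts of caup and ara lay 84.0 kb and 113 kb from that of mirr. In the Bar pair on chromosome X, B-H2 had 803 (719 to 895) and B-H1, 82.9 kb away, had 41.8 (24.3 to 66.9), a ratio of 19.2. A ratio of 19.3 was found between eyg, at 844 (779 to 913), and toe, at 43.8 (28.6 to 64.2), 35.3 kb apart on chromosome 3L. In the ladybird pair, 12.2 kb apart on chromosome 3R, lbe had 531 (462 to 606) and lbl 25.3 (14.2 to 41.7). Over the summed coverage of all TSSs at the gene, the ladybird ratio was 12.2. The lbe value lies 192 bp from the annotated start, and with TSSs within 50 bp alone lbe was not detected while lbl stayed at 25.3, so that lbe was no longer the higher gene. In these 4 sets the counting intervals of the genes at 200 bp did not overlap.

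Of the other sets, some were closer and some were not. The POU genes pdm2, at 978 (884 to 1079), and nub, at 804 (734 to 880), which are expressed in neuroblasts and lie 60.3 kb apart on chromosome 2L, differed by a ratio of 1.22. On summed coverage their order was reversed, with 1461 for nub and 1287 for pdm2. The Pax6 genes ey and toy on chromosome 4 had 61.6 (45.0 to 82.5) and 30.3 (18.0 to 48.0), with overlapping intervals. On summed coverage they were farther apart, with 171 for ey and 44.4 for toy, a ratio of 3.86. The genes zfh2 and zfh1, which are on different chromosomes, differed by a ratio of 1.46. With TSSs within 50 bp alone, zfh1 was at 1224, while zfh2 stayed at 5046. In the SINE class, so was 10.2 times as high as Six4 and 12.7 times as high as Optix, whose own intervals overlapped. With TSSs within 50 bp alone, Optix was at 42.5, while so and Six4 stayed at 1683 and 166. The Hox cofactors hth and exd, whose proteins bind each other, differed by a ratio of 9.40, with 351 (296 to 414) for exd.

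The position of the strongest start was compared with the annotation. In 36 of 49 genes (73.5%, 59.7% to 83.8%) it lay within 10 bp of an annotated start of the gene, beside 50.2% of detected protein-coding genes. The median absolute distance was 4 bp, beside 10 bp, and 31 genes lay between 0 and 6 bp downstream. Counted as positive downstream, the distance had quartiles of 0 and 5 bp, beside 1 and 26 bp in detected protein-coding genes. The strongest start was exactly at the annotated base in 3 genes, downstream in 35 and upstream in 11. It was over 50 bp away in 6 genes, named after their values were seen: 192 bp downstream in lbe, 146 bp in Ptx1, 90 bp in Optix, 76 bp in slou and 60 bp in Rx, and 85 bp upstream in zfh1. When TSSs within 50 bp alone were counted, lbe had none, so 48 genes were detected, and slou moved from 346 to 17.2 and Optix from 133 to 42.5. In Ptx1, a TSS within 50 bp of the start had 36.8, nearly the value of 37.0 farther downstream. No other gene had an annotated start nearer to the strongest TSS of any of the 49.

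Initiation was narrow. To measure it, coverage was summed within 100 bp on each side of the strongest TSS, in the 44 homeobox genes and 7202 protein-coding genes with a sum of at least 50. All 44 homeobox genes (100%, 92.0% to 100%) had at least 50% of this coverage within 5 bp of the strongest TSS, beside 67.8% of the protein-coding genes. The median share within 5 bp was 95.9%, beside 66.9%. At least 90% lay within 5 bp in 34 of 44 genes, beside 31.2% of protein-coding genes. The width that holds the coverage between its 10% and 90% points had a median of 4 bp, beside 24 bp, and was at most 5 bp in 32 of 44, beside 28.5%. The 5 other detected genes, B-H1, Ptx1, toy, C15 and bsh, were below the minimum.

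Since a shallow promoter can appear narrow or wide through few reads, the genes were also compared within classes of coverage. At sums from 50 to 200, the median share within 5 bp was 90.4% in 12 homeobox genes, beside 58.3% in 2826 protein-coding genes. From 200 to 1000 it was 95.4% in 14 genes, beside 61.6% in 2982. At 1000 and more, 18 homeobox genes had a median of 96.8%, beside 93.5% in 1394 protein-coding genes, a gap between medians smaller than in the classes below. The lower quartiles in this highest class were farther apart, at 95.4% and 70.1%, and the upper quartiles of the width were 4 bp and 20 bp. The share at the single strongest base had medians of 77.2% and 59.6% there.

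**Figure D3:**
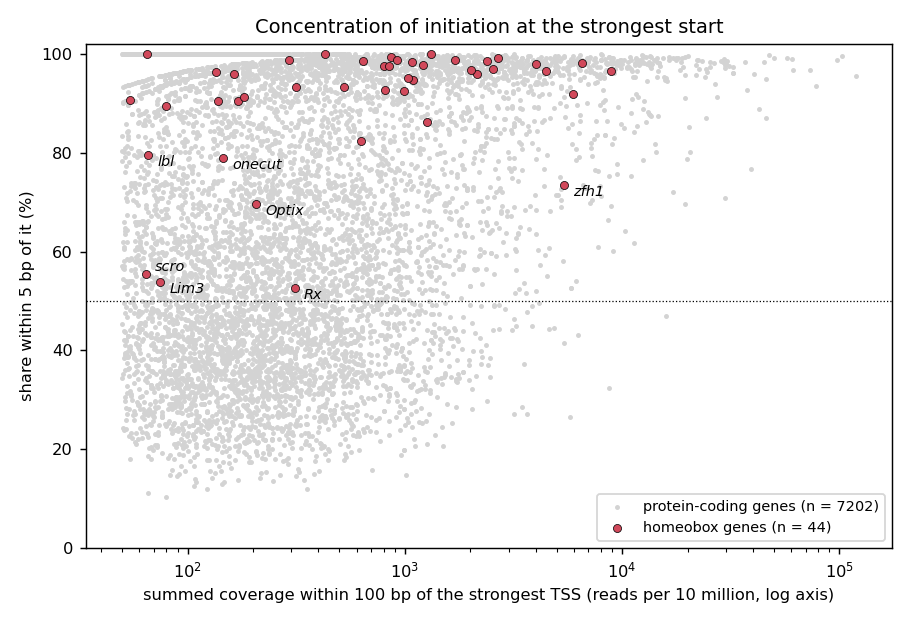
Share of coverage within 5 bp of the strongest TSS (%) against the coverage summed within 100 bp of it (log axis), for 44 homeobox genes and 7202 protein-coding genes. The dotted line marks 50%: all homeobox genes lie above it, and the 7 with a share under 80% are named.

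Dr shows the narrow form, with 88.9% of its coverage at 1 base and a 10% to 90% width of 1 bp. In ems the strongest base held 89.9% and in Dll 88.8%. The highest share at a single base was 93.2%, in B-H2. The highest shares within 5 bp were 100% in eyg, ind and toe, followed by 99.4% in B-H2 and 99.1% in Lim1. A high share within 5 bp did not require a single base. In ind, the strongest base had 164 from 97 reads, and a base 4 bp upstream had 155 from 113 reads of another library, so the strongest base held 38.0% of the coverage. In hth, whose strongest base held 55.8%, coverage of 1078 and 619 followed 2 bp and 1 bp downstream.

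The lowest shares within 5 bp were 52.5% in Rx, 53.8% in Lim3, 55.4% in scro, 69.5% in Optix and 73.4% in zfh1. In Rx, Optix and zfh1 the coverage formed a pair of narrow positions rather than a broad field. In zfh1, 3454 lay at base 30765841 of chromosome 3R, plus strand, and 1224 (726 reads) lay 91 bp downstream, 6 bp from the annotated start. Rx had 140 at its strongest TSS and 105 at a TSS 55 bp upstream. Optix had 133 and, 89 bp upstream and 1 bp from the annotated start, 42.5. Scro and Lim3 had low coverage, with strongest starts of 23 and 11 reads. A TSS over 20 bp from the strongest and with at least 10% of its coverage, anywhere within 200 bp of a start of the gene, was found in 13 of 44 genes (29.5%, 18.2% to 44.2%), beside 60.1% of protein-coding genes. This measure was chosen after values had been seen, and it was not compared within classes of coverage. It depends on depth, since few reads reach 10% of a weak strongest start. The strongest start had a median of 216 reads in detected homeobox genes and 29 in detected protein-coding genes. In Lim3, H2.0 and lbl the second TSS rested on 2 reads. The part of depth in the gap was not tested. In cad, such a TSS with 155 lay 171 bp downstream of the strongest.

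**Figure D4:**
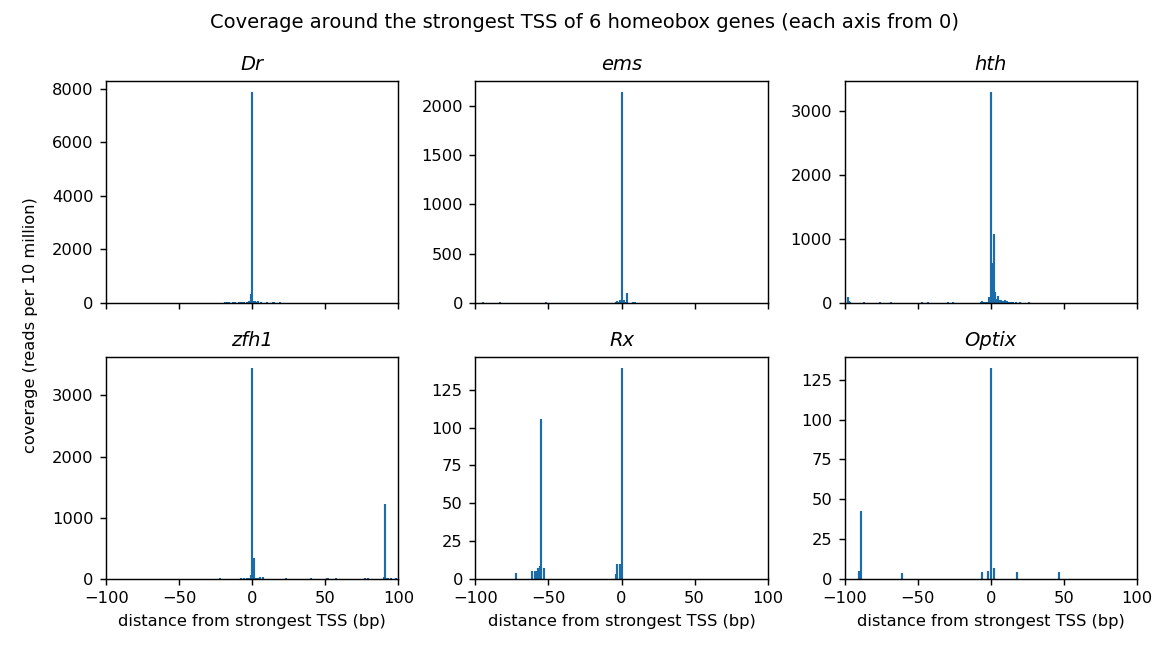
Coverage (reads per 10000000) by distance from the strongest TSS (bp, positive is downstream) in 6 homeobox genes, each panel with its own axis from 0. Dr and ems have 1 narrow position, hth has neighbouring bases, and zfh1, Rx and Optix have a second narrow position 91 bp downstream, 55 bp upstream and 89 bp upstream.

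Alternative promoters were then counted. Annotated starts of a gene at most 200 bp apart were merged into 1 promoter, and a promoter was called used where its TSSs summed to coverage of at least 10. The 50 genes had 77 annotated promoters, of which 53 were used, and the share over the promoters of all protein-coding genes is not given here. A single used promoter was found in 43 genes (86.0%), beside 54.0% of protein-coding genes. None was found in ro and bsh (4.00%), beside 36.6%. There were 2 in 5 genes (10.0%, 4.35% to 21.4%). In protein-coding genes the share with 2 or more was 9.33%. All these shares are over all genes, including those without a used promoter. Among the 48 homeobox genes with at least 1 used promoter, 43 had only 1. Among protein-coding genes, 7548 had only 1 and 1303 had 2 or more. Of the 16 homeobox genes with more than 1 annotated promoter, 5 used more than 1 (31.3%, 14.2% to 55.6%), beside 45.7% of such protein-coding genes, a value inside the interval. When the sum had to reach 50, 2 of the 49 detected genes (4.08%) had more than 1 used promoter, beside 7.48% of detected protein-coding genes. When a promoter had to hold at least 5% of the coverage of its gene, 3 of 49 (6.12%) did, beside 10.2%.

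In 15 of these 16 genes (93.8%, 71.7% to 98.9%) at least 90% of the coverage at annotated starts lay at a single promoter, beside 64.6% of detected protein-coding genes with several annotated promoters, and in 7 genes no TSS was listed at any other. The most 5′ promoter was the leading one in 8 of 16 genes, beside 49.1% of such protein-coding genes. Both measures were chosen after values had been seen. The exception in the first was nub, in which the promoter starting at base 12618345 of chromosome 2L, plus strand, had 916 (62.7%) and the one at 12618783 had 538 (36.8%). Its most 5′ promoter, at 12587625, had 6.74. In exd, 628 lay at the first promoter and 68.5 (9.83%) at the next, whose annotated start is base 15992700 of chromosome X, plus strand. The other genes with 2 used promoters had a minor one with little coverage, 32.5 in vnd, 21.8 in pdm2 and 12.2 in oc.

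In several genes the leading promoter was an internal one. Lim3 has 6 annotated promoters, and the fifth in 5′ to 3′ order held 95.7% of its coverage. In hth, the promoter at base 10614276 of chromosome 3R, minus strand, had 5950, and the more upstream one at 10639568 had 3 reads. In ey, all the coverage at annotated starts was at the middle of 3 promoters, with 171. In pdm2 it was the last of 3, with 98.3%, and in ap the middle of 3, with 98.0%. In ct, Lim1, Six4, Gsc, zfh1 and Optix, all coverage at annotated starts lay at the most 5′ promoter. For Lim1 this depends on the limit of 200 bp. A TSS with 17.8 from 13 reads lay 219 bp from its other annotated start.

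**Figure D5:**
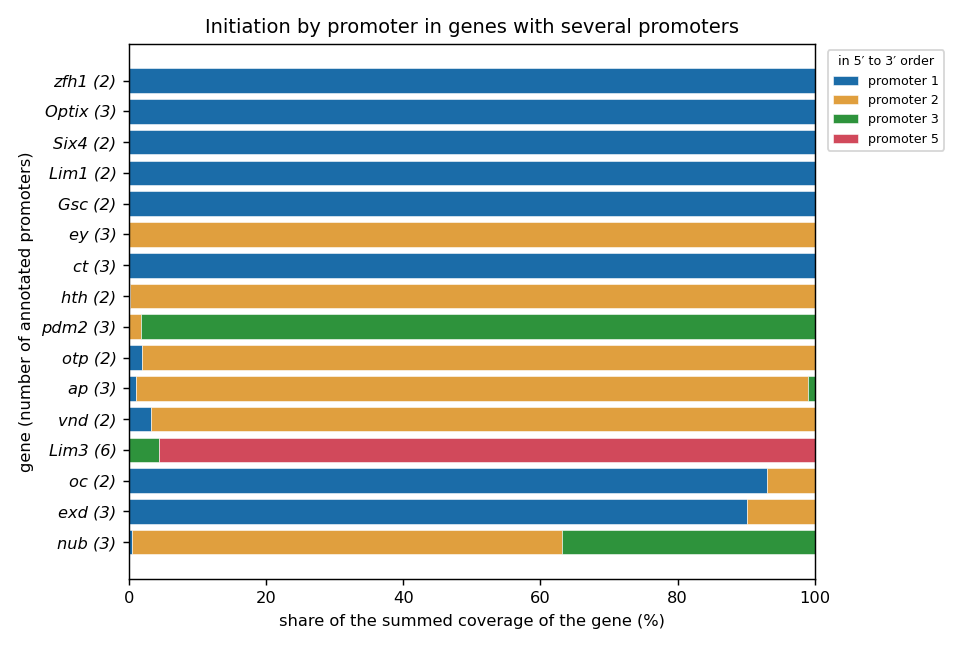
Share of the summed coverage of a gene (%) at each annotated promoter, in 5′ to 3′ order, for the 16 homeobox genes with more than 1 annotated promoter (number in brackets). In all but nub, 1 promoter holds at least 90%.

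Inside the gene bodies, 39 of the 50 genes (78.0%, 64.8% to 87.2%) had a sense TSS farther than 200 bp from any annotated start, beside 46.0% of protein-coding genes. Such a TSS reached coverage of 10 in 12 genes (24.0%, 14.3% to 37.4%), beside 12.3%. The homeobox genes were also longer, with a median of 12.6 kb beside 2.16 kb, and the part of length in these counts was not tested. These counts were compared with all genes after values had been seen. The genes named here were chosen after their values were seen. Of these 12 TSSs, 9 were in introns, 2 in untranslated parts of exons and 1 in coding sequence. The one in coding sequence was in ey, the Pax6 gene of eye formation, at base 717736 of chromosome 4, plus strand, 10307 bp from the nearest annotated start of the gene. It had 128 from 76 reads, which is 208% of the strongest annotated start of ey. The 8 TSSs within 100 bp of it summed to 364, of which 97.3% was within 5 bp. In so, an intronic TSS at base 7427416 of chromosome 2R, 8066 bp downstream of the start, had 187 from 111 reads, 11.1% of the strongest start. In hth an intronic TSS had 49.1 from 20 reads. In scro an intronic TSS had 31.9 from 13 reads, against 31.5 at the annotated start, and in Gsc an intronic TSS had 27.0, equal to that of the annotated start. These 2 intronic values each stood at a single base with no other TSS within 100 bp. The TSS of slou with 38.8 lay 208 bp from the start, close to the limit. Whether these 5′ ends were capped start sites or fragments was not tested, and the input library was not analysed here.

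On the opposite strand, a TSS within 500 bp upstream of the strongest start was found for 23 of 49 homeobox genes (46.9%, 33.7% to 60.6%), beside 45.4% of detected protein-coding genes. In 19 of the 23 genes (82.6%, 62.9% to 93.0%) the highest upstream TSS had coverage below 10, beside 38.8% of the 4440 protein-coding genes with one, and the range ran from 3.37 to 27.4. The highest, 499 bp upstream of exd, was within 200 bp of the annotated start of another gene, which was so in no other of the 23, beside 64.9% of the 4440 protein-coding genes. Both comparisons were added after values had been seen. The next were 14.7 at unpg, 13.7 at ap and 12.3 at tup. Where at least 4 reads were asked of the upstream TSS, 6 of 49 genes (12.2%) had one, beside 33.3% of protein-coding genes. Within 200 bp, 7 of 49 (14.3%) had one, beside 21.9%.

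Other homeobox genes were measured in the same way, from lists of 38 further homeobox genes and of the 8 Hox genes. Of the 37 further genes matched by symbol, 26 were detected, while 70.0% of all protein-coding genes were. The median strongest start of these 26 genes was 145, beside 52.1 in detected protein-coding genes. Their highest value was 9359, at the POU gene pdm3. All 8 Hox genes were detected, with a median of 182. The narrow form was also found there. The median share within 5 bp was 97.6% in the 22 further homeobox genes with enough coverage, 21 of which had at least 50%, and 98.0% in 7 Hox genes, all of which did. In protein-coding genes with enough coverage the median was 66.9%, and 67.8% of them had at least 50%. Of the Hox genes 4 of 8 had 2 or more used promoters, with 4 in Abd-B, while 1 of the 37 further homeobox genes did. The share over all protein-coding genes was 9.33%.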

How the data were processed

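The authors trimmed adapters with HOMER (4.11), aligned reads to dm6 with STAR (2.7.9a) and called TSSs from read 5′ ends with HOMER, with versions per the labels. In the deposited files the signal is coverage by read 5′ ends, scaled to 10000000 reads per library. Reads were recovered by dividing each value by that of 1 read, which worked for 232302 of 232302 TSSs, 17 of which fitted more than 1 library. How the library of a TSS was chosen is not given in the sources used here. The full list was used, with the deduplicated list (46925 TSSs) as an alternative. The log2 score list was not used.

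TSSs were placed against the Ensembl 115 annotation (BDGP6.54, dm6 coordinates) without transposable elements. All 50 names matched 1 protein-coding gene each. Background values include the homeobox genes. Shares have Wilson intervals and single values exact Poisson intervals, both at 95% and for counting error only. Calculations used Python 3.11.15, NumPy 2.4.6, pandas 2.3.3 and SciPy 1.17.1, and were tested on simulated data, in which the planted number of used promoters was found for 2000 of 2000 genes.

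The genes, lists and measures were chosen with earlier results of these data known. Values are given in full for the highest 8 and lowest 5 genes, the undetected gene, sets of related genes, and the 5 genes with the highest and the 5 with the lowest share within 5 bp, and others by role. Alternatives concerned distances, minimum reads or coverage, merging of starts and windows. DNA sequence was not analysed here.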

Additional observations from a re-analysis of the deposited data

How the results depend on the processing

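The number of detected homeobox genes stayed between 47 and 49 of 50 under the 6 alternatives tried. Over the 13968 protein-coding genes it ran from 8236 at coverage of at least 10 to 10072 at 500 bp. The alternatives were a start distance of 50 or 500 bp, at least 4 reads, coverage of at least 10, the deduplicated list, and TSSs nearest to a start of the same gene. The median strongest start was 370 at 50 bp, 389 at 500 bp and 389 with nearest starts of the same gene. In detected protein-coding genes these medians were 49.3, 50.6 and 52.1. The median summed coverage was 697, beside 173. The 5 genes with 2 used promoters became 2 at a sum of at least 50 (4.08% of 49, beside 7.48% of detected protein-coding genes), 3 at 5% of the gene (6.12% beside 10.2%), 3 with merging within 500 bp (6.12% beside 10.1%) and 6 with merging within 100 bp (12.2% beside 14.5%). The median share within 5 bp was 95.2% in a window of 200 bp, beside 64.9% in protein-coding genes. At window coverage of at least 100 it was 96.4%, beside 68.5%. Within 2 bp it was 87.4%, beside 52.7% in protein-coding genes. The median distance from an annotated start was 4 bp with starts up to 500 bp away, beside 12 bp in protein-coding genes. At 4 reads or more it was 3.5 bp, beside 10 bp. The 23 genes with an opposite-strand TSS became 7 within 200 bp (14.3% beside 21.9%) and 6 at 4 reads or more (12.2% beside 33.3%). Among single genes, slou, zfh1, Rx and Optix left their counting interval with starts within 50 bp, at 17.2, 1224, 105 and 42.5.

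Replicates were not left out in turn, as each TSS has 1 value. No paired analysis was possible because the TSS values carry no replicate numbers. The 3 libraries behind the values were not matched to samples. Promoter motifs and their settings were not run, as DNA sequence was not used here. At 3 reads or fewer, as in bsh, depth limits what can be said.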

Other observations

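Of the 50 homeobox genes, 4 (zfh2, ey, toy and onecut) are on chromosome 4, which holds 80 of the 13968 protein-coding genes (0.573%). Their strongest starts ran from 30.3 in toy to 5046 in zfh2. In a stretch of chromosome 3R the strongest starts of lbl, lbe, C15 and slou followed each other at distances of 12.2, 53.6 and 57.1 kb, with coverage of 25.3, 531, 5.48 and 346. On chromosome 2R, otp, Rx and hbn lay 19.2 and 44.1 kb apart, with 68.8, 140 and 1229. The counting intervals of adjacent genes did not overlap in either stretch.

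The library of 4070746 reads gave the strongest value in 21 of 49 homeobox genes (42.9%) and in 34.5% of detected protein-coding genes. The part of this choice of library in the coverage values was not tested.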
